A study of Solanum lycopersicum with 17 samples.

Results

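In floral buds of tomato, 42 of 34727 gene models were read at their highest mean level in male-fertile buds at stage 3 and at low levels or not at all in male-sterile buds. The sterile line is ms1035 and the fertile line is T-1082. Both were sampled by RNA sequencing at 3 developmental stages that the labels number without defining, and the age of the plants is not given. The groups are sterile buds at stages 1, 2 and 3 (3 libraries each) and fertile buds at stage 1 (2 libraries, replicates 2 and 3), stage 2 and stage 3 (3 libraries each). The labels give no genotype beyond the line names and no treatment. The series text calls the samples biological replicates without saying which plants were pooled or shared, so the p-values measure the spread between these samples.

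The 42 genes were chosen on CPM, counts per 1e6 assigned reads of the library. Their fertile mean was highest at stage 3 and at least 15 CPM there, and each of the 3 sterile means was at most 12.5% of it. The rule also leaves out a block of chromosome 2 identifiers, which holds the gene listed here as Ms10, and 1 cysteine protease gene, and 0 genes that met the rest of it were lost that way. Because these values chose the genes, the sterile deficit and the stage 3 peak are described here without a test. The files give gene models as identifiers only: 0 of the 42 carry a description, and none of the 41476 entries of the RefSeq table could be matched to these identifiers, so the genes have no names or known roles here. No sequences are shown for the same reason.

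Male sterility in flowers is often a failure of the anther. The tapetum, the inner cell layer of the anther wall, feeds the developing pollen, supplies its wall and then degenerates, while the microspores go on to become pollen grains. Ms10 and AMS are bHLH transcription factors that regulate the tapetum, and LAT52 is a gene of maturing pollen. In whole buds, fewer cells of a type and less RNA per cell cannot be told apart.

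Libraries held 499608 to 817548 assigned reads, so 1 read was worth 1.22 to 2.00 CPM. A group with 0 reads allows up to 1.54, 1.58 and 1.79 CPM in sterile buds at stages 1, 2 and 3, and up to 2.23, 1.31 and 1.61 CPM in fertile buds. These limits take 3 reads over the group and cover counting error only. Of the 42 genes, 41 had only uniquely assigned reads, and the other one had 99.7% unique reads.

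The 42 genes were not fully silent in sterile buds, although they stayed under the limit that chose them. Only 5 of the 42 had 0 reads in all 9 sterile libraries, and 37 had at least 1 read. Summed over the 42 genes, sterile libraries held 22.7, 23.6 and 32.4 CPM at stage 1 (replicates 1, 2 and 3), 104, 52.9 and 76.5 CPM at stage 2, and 556, 113 and 85.9 CPM at stage 3. Fertile libraries held 281 and 312 CPM at stage 1 (replicates 2 and 3), 1562, 921 and 808 CPM at stage 2 (replicates 1, 2 and 3), and 2037, 6005 and 4758 CPM at stage 3. Replicate 1 of sterile stage 3 therefore stood apart from the other 2 libraries of its group, and replicate 1 of fertile stage 3 was the lowest of its group.

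**Figure D1:**
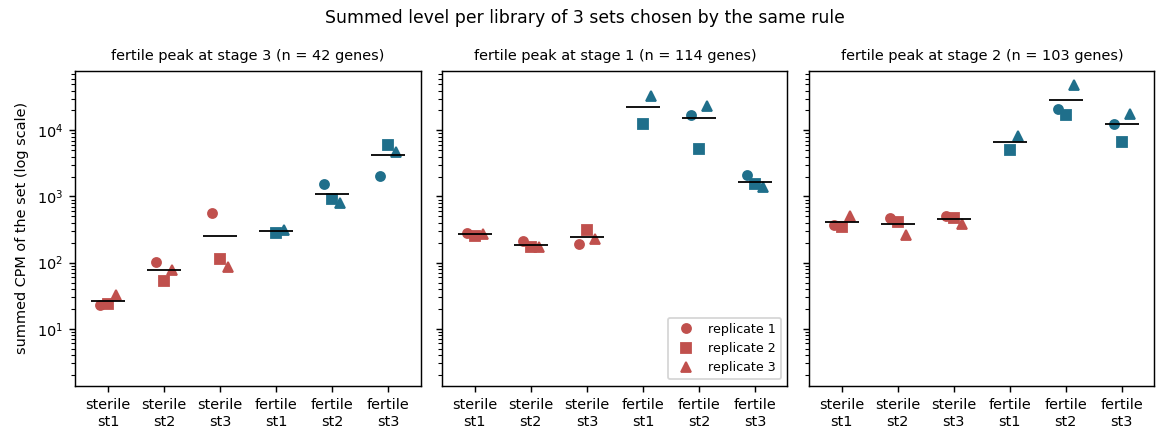
Summed CPM (log scale) of the 42 genes that peak at fertile stage 3 (left), of 114 genes chosen by the same rule with the peak at fertile stage 1 (middle) and of 103 genes with the peak at stage 2 (right), by line and stage (st). Each marker is 1 library, its shape is the replicate number, and bars are group means. In the left panel, sterile stage 3 replicate 1 (556 CPM) lies above the other sterile libraries (22.7 to 113 CPM), while in the middle panel it is the lowest of its group (194 CPM). In the right panel it is the highest of its group (506 CPM, against 468 and 382 CPM) but within the range of the other sterile libraries.

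In fertile buds the genes differed in how early they were first read. The largest group, 23 of the 42, had 0 reads in both fertile libraries of stage 1. Of these 23, 10 stood at stage 2 under 12.5% of their stage 3 mean, 10 stood from 12.5% to under 50%, and 3 stood at 50% or more. The other 19 had at least 1 read at stage 1, of which 8 reached at least 12.5% of their stage 3 mean already there. Over all 42 genes the stage 2 mean was 0% to 87.4% of the stage 3 mean, with a median of 20.8%.

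Among the genes without stage 1 reads, Solyc06g059790 had the highest level of all 42, both in CPM and per length. It had 25.7 CPM in sterile stage 3 replicate 1 and 0 reads in the other 8 sterile libraries, against 0 and 0 CPM at fertile stage 1, 128, 6.12 and 7.18 CPM at fertile stage 2, and 151, 737 and 732 CPM at fertile stage 3. Per length it averaged 1512 RPKM at fertile stage 3 (reads per kilobase of the gene model and per 1e6 reads), the highest of the 42, followed by Solyc07g007730 with 914 RPKM and Solyc07g045090 with 418 RPKM. The lowest was Solyc10g055470 with 7.5003 RPKM.

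Solyc07g007730 followed the same course at a lower level. In sterile buds it had 0 reads at stage 1, 1.70, 0 and 0 CPM at stage 2, and 44.0, 7.96 and 0 CPM at stage 3. In fertile buds it had 0 reads at stage 1, 46.7, 2.45 and 7.18 CPM at stage 2, and 43.5, 230 and 384 CPM at stage 3. In both genes replicate 1 of fertile stage 2 was well above the other 2 libraries of that stage and close to replicate 1 of fertile stage 3.

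The 3 genes with the lowest share at stage 2 were read almost only in replicates 2 and 3 of fertile stage 3. Solyc04g071790 had 0 reads in all sterile libraries and at fertile stages 1 and 2, and 0, 64.1 and 3.46 CPM at fertile stage 3, so its mean rests mostly on 1 library. Solyc02g070180 had 1.83 CPM in sterile stage 3 replicate 1 and 0 in the other sterile libraries, against 0 CPM at fertile stages 1 and 2 and 2.56, 30.02 and 31.2 CPM at fertile stage 3. Solyc07g015870 had 1 read each in 2 of the 9 sterile libraries, against 0 CPM at fertile stage 1, 1.30, 0 and 0 CPM at stage 2, and 3.84, 152 and 20.8 CPM at stage 3. In each of these 3 genes replicate 1 was the lowest of the fertile stage 3 libraries.

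Other genes were already near their peak at stage 2. In sterile buds Solyc01g105600 had at most 5.505 CPM in any library. It had fertile means of 0, 47.3 and 54.2 CPM at stages 1, 2 and 3, with 5.19, 39.1 and 97.6 CPM in the libraries of stage 2 and 21.7, 68.1 and 72.7 CPM in those of stage 3. Solyc08g078460 had at most 5.505 CPM in the sterile libraries, against 12.0 and 1.68 CPM in the fertile libraries of stage 1, 11.7, 41.6 and 23.0 CPM in those of stage 2, and 35.8, 10.01 and 48.5 CPM in those of stage 3. Stages 2 and 3 overlapped in both genes, and in Solyc01g105600 the highest fertile library was one of stage 2.

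Solyc05g010310 ran against the pattern of most of the other genes within fertile stage 3. Its sterile reads were all in stage 3 replicate 1 (12.8 CPM), against 0 and 0 CPM at fertile stage 1, 287, 143 and 66.0 CPM at stage 2, and 460, 4.003 and 111 CPM at stage 3. Replicate 1 was the highest fertile stage 3 library for this gene and replicate 2 the lowest. The tapetum regulator AMS (Solyc08g062780) had the same order, with 161, 28.0 and 69.3 CPM in those 3 libraries. Of the other regulators and tapetum products listed below, TomA108 and the aspartic proteinase had this order too. STR1, Ms32, TDF1 and the cysteine protease did not. MYB80 had 1 read at fertile stage 3, and Ms10 and MS1 had 0.

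Among the 19 genes already read at stage 1, Solyc10g074950 was even there, with 9.33 and 10.1 CPM in the fertile libraries, and others were not. In sterile buds Solyc06g053380 had at most 10.9 CPM in the libraries of stages 1 and 2, and 44.0, 1.99 and 3.18 CPM at stage 3. In fertile buds it had 2.67 and 213 CPM at stage 1 (replicates 2 and 3), 108, 2.45 and 96.2 CPM at stage 2 (replicates 1, 2 and 3) and 35.8, 358 and 255 CPM at stage 3. Its low libraries at fertile stages 1 and 2 were also the low ones of the aspartic proteinase gene Solyc06g069220, a gene of the tapetum list, which had 536 and 1803 CPM at stage 1 and 1936, 7.34 and 1526 CPM at stage 2. The match did not hold at fertile stage 3. There replicate 1 was the highest for the proteinase gene (16.6, 2.00 and 8.66 CPM) and the lowest for Solyc06g053380. Among other listed anther genes, TomA108, STR1, TDF1, MYB80, MS1 and Ms32 were also lowest in replicate 2 at fertile stages 1 and 2. Ms32 was nearly even at stage 1 (120 and 123 CPM). AMS, Ms10, the cysteine protease and LIN7 had their lower stage 1 library in replicate 3 instead.

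Solyc07g056000 was uneven in the other direction. It had 0 to 7.96 CPM in the 9 sterile libraries, against 145 and 3.36 CPM at fertile stage 1, 1.30, 51.4 and 40.2 CPM at stage 2, and 29.4, 140 and 79.6 CPM at stage 3. The libraries in which it was low were those in which Solyc06g053380 was high at stages 1 and 2, with replicate 3 of stage 2 the exception.

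**Figure D2:**
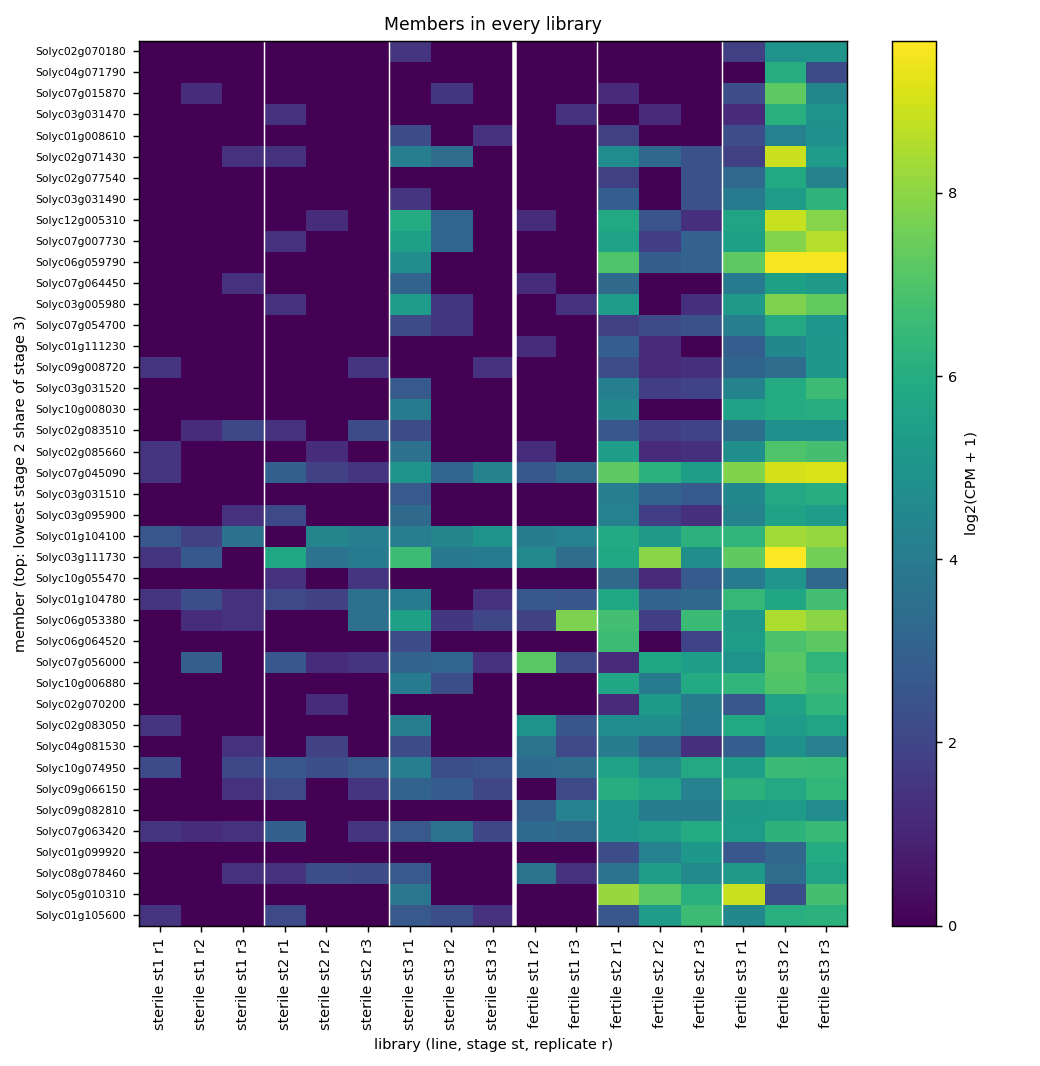
The 42 genes (rows) in all 17 libraries (columns), sterile left and fertile right of the thick line, as log2(CPM + 1). Rows are ordered by the stage 2 mean as a share of the stage 3 mean in fertile buds, lowest on top. Most rows are brightest in fertile stage 3 replicates 2 and 3, and a fainter column is seen at sterile stage 3 replicate 1.

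The order of fertile stages 1 and 2 was not set by the choice of genes, which required only that both lie below stage 3. Of the 42, 37 had a higher mean at stage 2, 3 a higher mean at stage 1, and 2 had 0 reads at both. Without fertile stage 2 replicate 1, the library with the highest sum at that stage, 30 had the higher mean at stage 2. The shares over all genes are not given for these counts of means, so they are not read as a trait of the 42. All 3 libraries of stage 2 lay above both of stage 1 in 23 of the 42, against 10.1% of the 13568 genes tested.

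Of the 42 genes, 39 passed the filter on low counts. The other 3 were Solyc04g071790, Solyc10g055470 and Solyc09g008720. By edgeR quasi-likelihood over all genes (adjusted p under 0.05), 2 of the 39 were higher at fertile stage 2 than at stage 1 and 0 were lower, where 0.155% of all tested genes were called, 0.0958% higher and 0.059% lower. At an unadjusted p under 0.05 the number higher was 22 of the 39 and the number lower 0, where 9.30% of all tested genes passed in either direction.

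Solyc07g045090 had 154, 70.9 and 41.6 CPM at fertile stage 2, against 5.33 and 8.39 CPM at stage 1. It rose by 3.76 on the log2 scale (SE 0.71, edgeR adjusted p = 0.0443). Solyc09g066150 had 63.6, 48.9 and 18.7 CPM at stage 2, against 0 and 3.36 CPM at stage 1. That is 102 reads in 3 libraries against 2 reads in 2, a ratio of 30.04 once scaled to the total reads of each group (exact 95% interval 8.11 to 251, counting error only), and the fitted log2 difference was 4.76 (SE 0.82, edgeR adjusted p = 0.0270). In both genes the libraries of the stages did not overlap.

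Both calls were lost when some libraries were left out, although the log2 difference stayed at 3.11 to 4.13 for Solyc07g045090 and at 3.67 to 7.88 for Solyc09g066150 with any 1 library left out. That of Solyc07g045090 was lost without fertile stage 1 replicate 2 or 3 or stage 2 replicate 1 (edgeR adjusted p = 0.391, 0.272 and 0.0972), and over its alternatives adjusted p ran from 0.000149 to 0.391. That of Solyc09g066150 was lost without the same 3 libraries (edgeR adjusted p = 0.304, 0.104 and 0.0704), and its range was 0.000153 to 0.304. The count of 2 fell to 0 without either stage 1 library and to 1 without stage 2 replicate 1, and was 3 without stage 2 replicate 2.

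The rule sets a limit on the sterile means but not their order over stages. The sterile mean was highest at stage 3 in 30 of the 42, and in 15 without sterile stage 3 replicate 1. Shares over all genes are not given for these counts either. The libraries of stage 3 lay above all of stage 1 in 7 of the 42, against 7.30% of tested genes.

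By edgeR, 1 of the 39 tested genes was higher at sterile stage 3 than at stage 1, and 0 were lower, where 2.06% of all tested genes were called, 1.43% higher and 0.634% lower. A share of 1 in 39 is near that background. The gene was Solyc07g045090, with 31.2, 7.96 and 19.1 CPM at sterile stage 3 and 1.75, 0 and 0 CPM at sterile stage 1. These are 33 reads against 1, a ratio of 38.4 once scaled to the total reads of each group (exact 95% interval 6.43 to 1563, counting error only), with edgeR adjusted p = 0.0267. The call was lost without sterile stage 1 replicate 1, 2 or 3 or stage 3 replicate 1 (edgeR adjusted p = 0.0573, 0.175, 0.0813 and 0.1399), which takes the count to 0, while the log2 difference stayed at 4.37 to 6.73 with any 1 library left out, against 4.92 with all. Over the alternatives adjusted p ran from 0.000614 to 0.175. At an unadjusted p under 0.05 by edgeR, 10 of the 39 genes were higher and 0 lower, where 16.9% of all tested genes passed in either direction.

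Solyc07g045090 was thus called with stage in both lines, at very different levels: its stage 3 means were 19.4 ± 11.6 CPM in sterile and 432 ± 181 CPM in fertile buds (SD, n = 3 each).

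Between sterile stages 3 and 2, edgeR called 0 of the 39 genes and 0 of 13568 (0%). At an unadjusted p under 0.05 there were 5 of the 39, all higher, and 782 of all genes in either direction (5.76%). DESeq2 called 0 of the 42 and 4 of all genes. Of the 42 genes, 1 had all 3 libraries of sterile stage 3 above all of stage 2, against 3.35% of tested genes, and 2 did without sterile stage 3 replicate 1, against 6.48%.

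Much of the sterile signal at stage 3 came from replicate 1. Of the 608 reads of the 42 genes in the 9 sterile libraries, 303 (49.8%) were in that library, and 8 genes had their only sterile reads there. Reads were found for 32, 16 and 12 of the 42 genes in sterile stage 3 replicates 1, 2 and 3. Replicate 1 was strictly the highest of its group for 29 of the 42, against 28.4% of all tested genes. The choice of genes used only the group mean, so it did not set which library was high.

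Of these 29 genes, 5 exceeded fertile stage 3 replicate 1 with 9 or more reads in the sterile library. Solyc12g005310 had 60.6 CPM in sterile stage 3 replicate 1, against 48.6 CPM in fertile stage 3 replicate 1, where 458 and 237 CPM were found in fertile replicates 2 and 3. Solyc03g005980 had 38.5 CPM in the sterile library, against 35.8 CPM in fertile replicate 1 and 220 and 159 CPM in fertile replicates 2 and 3. Solyc07g007730 stood at 44.0 against 43.5 CPM, Solyc06g053380 at 44.0 against 35.8 CPM and Solyc02g071430 at 16.5 against 2.56 CPM in the same pair of libraries. In all 5 the other fertile stage 3 libraries were higher than the sterile one. Solyc05g010310 also exceeded its lowest fertile library, by 7 reads against 2.

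**Figure D3:**
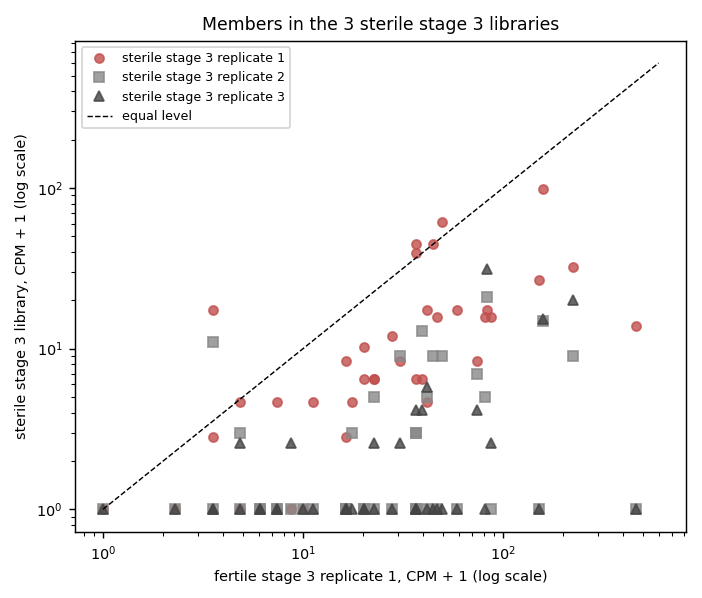
CPM + 1 (log scales) of the 42 genes in each sterile stage 3 library, against fertile stage 3 replicate 1. Points of sterile replicate 1 lie on or near the dashed line of equal level for several genes (60.6 against 48.6 CPM for Solyc12g005310), and many points of sterile replicates 2 and 3 lie at 0 reads, drawn at 1.

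The 3 genes with the most sterile reads had some in every sterile stage. Solyc03g111730 had 123 sterile reads, with 1.75, 5.24 and 0 CPM at sterile stage 1, 54.3, 11.9 and 14.6 CPM at stage 2, and 97.2, 13.9 and 14.3 CPM at stage 3, against 157, 809 and 197 CPM at fertile stage 3. Solyc01g104100 had 74 sterile reads, with 16.5, 19.9 and 30.2 CPM at sterile stage 3, where replicate 1 was the lowest, against 81.8, 316 and 282 CPM at fertile stage 3. Solyc07g045090 was the third, with 41 sterile reads.

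Other genes of the bud were also high in sterile stage 3 replicate 1. The 5 petal and stamen identity genes listed (TAP3, TM6, 2 PISTILLATA-type genes and TAG1, MADS-box regulators of floral organs) summed to 2119, 1119 and 1210 CPM in sterile stage 3 replicates 1, 2 and 3, against 2621, 3287 and 3117 CPM at fertile stage 3. In replicates 1, 2 and 3 the 5 genes also summed to 882, 742 and 730 CPM at sterile stage 1. At sterile stage 2 the sums were 1451, 1118 and 1009 CPM, so replicate 1 was the highest at every sterile stage. TAP3 had 484, 211 and 197 CPM in the sterile stage 3 libraries and TM6 132, 135 and 143 CPM, so 4 of the 5 were highest in replicate 1 there and TM6 was not. The 4 tapetum products listed (TomA108, STR1, the aspartic proteinase and the cysteine protease) together had 1, 6 and 2 reads in these sterile libraries, against 1720, 368 and 2579 reads at fertile stage 3. Most of the fertile reads were of the cysteine protease, with 4422 over the 3 libraries, against 2 at sterile stage 3. STR1 had 180 against 1, TomA108 46 against 1 and the aspartic proteinase 19 against 5. LAT52, a gene of late pollen, had 0 reads at sterile stage 3. The part of these differences in the levels of the 42 genes was not tested. Names in these lists are recalled from the tomato literature and are not paired with the identifiers in the files.

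The same rule with the peak at another fertile stage gave 114 genes for stage 1 and 103 for stage 2. Sterile stage 3 replicate 1 was strictly the highest of its group for 29 of the 42 genes (69.0%), for 15 of the 114 (13.2%) and for 23 of the 103 (22.3%). The 114 genes summed to 194, 316 and 226 CPM in sterile stage 3 replicates 1, 2 and 3, and the 103 genes to 506, 468 and 382 CPM. Whether the sets differ in this was not tested.

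The fertile libraries of stage 3 were uneven as well. Replicate 1 was strictly the lowest for 35 of the 42 genes, against 32.5% of all tested genes, and replicates 2 and 3 were the highest for 22 and 18. The highest of the 3 libraries was more than 5 times the lowest in 16 of the 41 genes with reads in all 3. At fertile stage 2 replicate 1 was strictly the highest for 26 of the 42, against 32.9% of tested genes. Solyc10g008030 was the most even at stage 3, with 46.0, 60.05 and 64.1 CPM, and it had 22.1, 0 and 0 CPM at fertile stage 2.

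Some other anther genes were uneven at fertile stage 3, in orders of their own. LAT52 (Solyc10g007270) had 5.11, 22.0 and 5.19 CPM in fertile stage 3 replicates 1, 2 and 3, which are only 4, 11 and 3 reads. Its replicates 1 and 3 were thus alike. Its mean of 10.8 CPM is under the 15 CPM of the rule. The tapetum gene TomA108 (Solyc01g009590) stood at 42.2, 6.005 and 17.3 CPM there, so its highest library was the lowest for most of the 42 genes. The anther invertase gene LIN7 (Solyc09g010090) stayed even at 21.7, 22.0 and 19.0 CPM.

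The rule fixed the peak of the 42 at stage 3, the last stage sampled, so other genes could only peak there or earlier. It also left out Ms10 and the cysteine protease gene by identifier. LAT52 and LIN7 had their highest fertile mean at stage 3 as well. Of the 6 regulators (Ms10, Ms32, AMS, TDF1, MYB80 and MS1) and 4 tapetum products, 8 had their highest fertile mean at stage 1, 2 at stage 2 and 0 at stage 3. Of these 10 genes, 1 was called higher at fertile stage 2 than at stage 1, the cysteine protease gene Solyc07g053460 (edgeR adjusted p = 0.00902, log2 difference 8.37, SE 1.20). Its means were 4330 ± 4245 CPM at stage 2 (n = 3) and 13.3 ± 18.9 CPM at stage 1 (n = 2). Between fertile stages 3 and 2, 2 of the 10 were lower. TomA108 fell to 21.8 ± 18.5 CPM at stage 3, against 579 ± 443 CPM at stage 2, and the aspartic proteinase gene to 9.09 ± 7.32 CPM, against 1156 ± 1016 CPM (SD, n = 3 each, edgeR adjusted p = 0.0463 and 0.0385). The cysteine protease call was lost without fertile stage 1 replicate 3 (edgeR adjusted p = 0.104). That of TomA108 was lost without fertile stage 2 replicate 1 or 3 or stage 3 replicate 2 or 3, with edgeR adjusted p up to 0.275, and that of the aspartic proteinase without these or stage 3 replicate 1, up to 0.267. Over all alternatives, other settings included, the cysteine protease call held in 10 of 12. That of TomA108 held in 7 of 13 and that of the aspartic proteinase in 6 of 13. In sterile buds 0 of the 10 were called between stages 3 and 1 or stages 3 and 2. Of the 5 petal and stamen identity genes, the PISTILLATA-type gene Solyc08g067230 was called higher at sterile stage 3 than at stage 1 (log2 difference 1.19, SE 0.28, edgeR adjusted p = 0.0391). That call was lost without any 1 of the 3 stage 1 libraries or without sterile stage 3 replicate 1 or 3 (up to an adjusted p of 0.231 by edgeR). With any 1 library of the stages compared left out, the log2 difference stayed at 7.11 to 14.51 for the cysteine protease gene, -5.56 to -4.02 for TomA108, -7.64 to -6.29 for the aspartic proteinase gene and 0.91 to 1.42 for Solyc08g067230. Of the 6 reference genes listed (EF1a, GAPDH, CAC, TIP41, SAND and Expressed), 0 were called in the stage comparisons within either line.

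How many of the 42 genes pass a test in the contrasts that chose them is given only to account for them. In sterile against fertile buds at stage 3, edgeR called 11 of the 39 tested genes lower, where 0.737% of all tested genes were called, 0.568% lower and 0.17% higher. The libraries of the lines did not overlap in 35 of the 42, against 7.65% of tested genes. The count of 11 was 19 without fertile stage 3 replicate 1, 4 without fertile replicate 3, 2 without sterile replicate 2 and 5 without sterile replicate 3. Between fertile stages 3 and 2, edgeR called 1 of the 39 higher, where 0.236% of all tested genes were called, 0.0737% higher and 0.162% lower, and 5 of the 39 with a replicate block. Without fertile stage 3 replicate 1 the count was 5, and it was 0 without any 1 of the other 5 libraries of these stages. All libraries of stage 3 lay above all of stage 2 in 19 of the 42, against 6.24% of tested genes.

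Membership itself rested in part on single libraries. Leaving out 1 library at a time, 19 of the 42 genes met the rule every time and 23 failed it at least once. Most were lost without fertile stage 3 replicate 2 (12 genes, among them Solyc02g071430, Solyc03g111730 and Solyc12g005310) or replicate 3 (7 genes), or without sterile stage 3 replicate 3 (8) or 2 (7). Without fertile stage 3 replicate 1 only Solyc05g010310 was lost. Without sterile stage 3 replicate 1 itself, 67 genes met the rule, among them all 42. Without fertile stage 2 replicate 3, 69 genes met it, among them 41 of the 42.

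At the threshold of 15 CPM, Solyc01g008610 (16.5 CPM) and Solyc04g081530 (17.2 CPM) lay just inside, and Solyc09g009600 (14.7 CPM) and Solyc12g005320 (14.1 CPM) just outside. At the sterile limit of 12.5%, Solyc02g083050 (11.3%) and Solyc10g074950 (10.96%) lay just inside, and Solyc12g044950 (12.6%) and Solyc01g109330 (12.8%) just outside. Solyc12g005320, just outside, carries the identifier next to that of Solyc12g005310, one of the 42, and had fertile means of 0, 0.43 and 14.1 CPM.

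Some of the 42 genes lie next to each other in the numbering of gene models. Solyc03g031470, Solyc03g031490, Solyc03g031510 and Solyc03g031520 on chromosome 3 fall within 6 gene models in a row. The last 3 are short, with coding lengths of 261, 261 and 252 bases. The only sterile reads of Solyc03g031510 were 5.505 CPM in stage 3 replicate 1, against 21.7, 56.0 and 64.1 CPM at fertile stage 3. Solyc03g031520 had the same 5.505 CPM in that sterile library alone, against 19.2, 60.05 and 97.0 CPM at fertile stage 3. Solyc03g031490 had 1 sterile read, also there, against 15.3, 40.0 and 76.2 CPM at fertile stage 3. The 3 short genes thus had the same order of fertile libraries, with replicate 1 lowest and replicate 3 highest.

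Solyc03g031470, with a coding length of 1005 bases, had 1 sterile read, at stage 2, against 1.28, 68.1 and 29.4 CPM at fertile stage 3, with replicate 2 highest. Of the 2 gene models between them, Solyc03g031480 (252 bases) had 0 reads outside fertile stage 3 and a mean of 4.40 CPM there, and Solyc03g031500 had 0 reads in all 17 libraries. The models on either side had reads in all 6 groups. Solyc03g031460 had means of 56.5, 48.6 and 31.5 CPM in sterile buds and 67.1, 49.6 and 43.3 CPM in fertile buds at stages 1, 2 and 3.

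**Figure D4:**
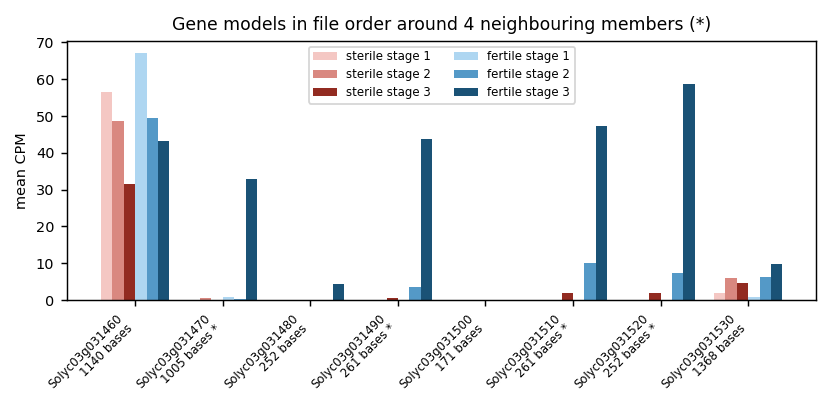
Mean CPM by line and stage of 8 gene models in the order of their identifiers on chromosome 3, with coding lengths in bases. Asterisks mark the 4 that belong to the 42 genes, which are tall only at fertile stage 3 (32.9 to 58.7 CPM), while Solyc03g031460 is read in all 6 groups.

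Another pair, Solyc02g070180 and Solyc02g070200 on chromosome 2, has 1 gene model between them, with 0 reads in all libraries. Their coding lengths are 1623 and 1626 bases. Solyc02g070200 had 1.32 CPM in 1 sterile library, against 1.30, 37.9 and 15.8 CPM at fertile stage 2 and 5.12, 46.0 and 81.4 CPM at fertile stage 3, whereas Solyc02g070180 had 0 reads at fertile stage 2. Whether either set of neighbours shares sequence cannot be read from the files.

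By chromosome number in the identifiers, 7 of the 42 lie on each of chromosomes 2, 3 and 7 and 6 on chromosome 1. Chromosomes 2, 3 and 7 each hold 16.7% of the 42, against 10.7%, 10.6% and 7.74% of the 10698 genes with a fertile stage 3 mean of at least 15 CPM. Coding lengths had a median of 998 bases, against 1269 bases over those 10698 genes. The 5 genes of at most 300 bases make up 11.9% of the 42, against 1.11% of the 10698, and 3 of the 5 are the neighbours on chromosome 3. The shortest was Solyc07g007730 (240 bases), and the longest were Solyc10g055470 (2490 bases), Solyc12g005310 (1830 bases) and Solyc02g070200 (1626 bases). These shares are descriptions, and no test of them was made.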

How the data were processed

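Per the labels, RNA of floral buds was isolated by the Trizol method before library preparation. Per the file headers, the authors deposited counts of all and of uniquely assigned reads for 34727 gene models, gene length, and RPKM. A length divisible by 3 was found for 34726 models, and lengths are therefore called coding lengths. The deposited RPKM was recomputed from total reads and length, and 0 values differed by more than 1e-06 of their size. Libraries held 499608 to 817548 assigned reads. The names of 2 gene models carry coordinates of build SL2.40, and no build is named for the others. How reads were aligned and counted, and whether by strand, is not given in the sources used here.

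Total counts were modelled in edgeR 4.0.16 (R 4.3.3), with filterByExpr over the 6 groups (13568 genes kept), TMM factors of 0.901 to 1.09, 1 quasi-likelihood fit over 17 libraries with 11 residual degrees of freedom, Benjamini-Hochberg adjustment over all tested genes and a threshold of 0.05. DESeq2 1.42.0 was an alternative. The SE is the size of the log2 change divided by the square root of F. The code was tested on simulated data.

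Same-numbered libraries deviated together (residual correlation over 0.1 in each of 3 pairs) between stages 3 and 2, at 0.356 to 0.461 in sterile and 0.190 to 0.317 in fertile buds. The labels do not say what a number marks. Alternatives without sterile stage 3 replicate 1 or fertile stage 2 replicate 1 for the counts of members by stage were chosen after seeing the data.

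The 42 genes and the lists were chosen with earlier results of these data known. Named are the genes with the 8 highest fertile stage 3 levels, the 3 highest and lowest stage 2 shares, the 3 with most sterile reads, called genes, threshold neighbours, genes adjacent in identifier order and extremes of length. Others (among them Solyc02g071430, Solyc03g005980, Solyc07g056000 and Solyc10g008030) were named after their values were seen.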

Additional observations from a re-analysis of the deposited data

How the results depend on the processing

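The number of genes that met the rule was 42, and 102 with a sterile limit at 1/4 of the fertile peak, 21 at 1/16 and 79 with group medians, of which 37 were among the 42. It was 35 to 69 with 1 library left out, and within 1.5 times 42 with unique reads, effective library sizes, a minimum of 10 or 30 CPM or without the libraries numbered 3, where 28 of the 42 remained. Calls among the 42 depended on the settings as follows. For fertile stage 2 against stage 1 (2 calls) there were 4 with DESeq2, 11 with no filter, 5 with a replicate block, 0 with only the groups compared, 0 without the libraries numbered 3, and 0 to 3 with 1 library left out. For sterile stage 3 against stage 1 (1 call) there were 3 with DESeq2, 4 with no filter, 1 with a replicate block, 0 with only the groups compared, 0 without the libraries numbered 3, and 0 to 1 with 1 library left out. For sterile stage 3 against stage 2 there were 0 under each of 13 alternatives. For sterile against fertile buds at stage 3 (11 calls) there were 40 with no filter, 24 with a replicate block, 2 without the libraries numbered 3, and 2 to 19 with 1 library left out. For fertile stage 3 against stage 2 (1 call) there were 2 with DESeq2, 19 with no filter, 5 with a replicate block, 0 with only the groups compared, 0 without the libraries numbered 3, and 0 to 5 with 1 library left out. The cause was not tested. Over all genes, calls ran from 0 to 157 (21 reported), 18 to 679 (280), 0 to 45 (0), 13 to 305 (100) and 0 to 253 (32) in these 5 comparisons. Of the comparisons with 3 pairs, those between stages 3 and 2 met the limit for pairing. Same-numbered residuals correlated at 0.0128 to 0.384 between sterile stages 3 and 1 and at -0.0264 to 0.247 between the lines at stage 3, and at 0.294 and 0.308 in the 2 pairs of fertile stages 2 and 1. The log2 differences of the 6 genes whose stage calls are named kept their direction under every alternative fitted. The stage 3 peak of single genes did not hold in this way. Solyc05g010310 lost it without fertile stage 3 replicate 1 or stage 2 replicate 3. Solyc01g105600, Solyc01g099920 and Solyc08g078460 lost it without fertile stage 2 replicate 1, and Solyc07g056000 without fertile stage 1 replicate 3. Leaving out fertile stage 3 replicate 2 or 3 also removed it in some of these genes. Solyc07g045090 was too low to be tested between sterile stages 3 and 1 with only the groups compared. Depth limits the low levels: in sterile libraries 1 read is 1.31 to 1.99 CPM.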
